A study of Homo sapiens with 6 samples.

Results

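The genes encoding integrin subunits and laminin chains were examined in U-87, an established human glioma cell line, after knockdown of P68. Members were chosen by gene family name, with no measured value in the rule: probe sets annotated with exactly 1 symbol of an integrin alpha or beta subunit or a laminin alpha, beta or gamma chain. This gave 35 genes of the 18417 measured, namely 17 integrin alpha subunits, 8 integrin beta subunits and 10 laminin chains, each with a single probe set. ITGA1, whose probe set is annotated to a second gene as well, and LAMA3 were not analysed here.

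The series comprised 6 arrays of total RNA from U-87 cells grown in serum, 3 of the group P68 Knockdown and 3 of the group P68 Wild Type, and the study asked how P68 bears on growth and invasion. P68, a DEAD-box RNA helicase, is the product of DDX5. Cells received siP68 or a reagent written NC, per the labels' protocols, which leave unsaid whether NC was given to the wild-type cells. Nothing in the labels tells separate cultures from repeat arrays of one culture, so every p-value here rests on a spread that may be purely technical.

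Integrins are cell surface receptors built of 1 alpha and 1 beta subunit, which bind the extracellular matrix outside the cell and, through adaptors such as talin and kindlin, the actin cytoskeleton inside it. The alpha subunit largely sets the ligand, which may be collagen, laminin or proteins carrying an RGD motif such as fibronectin and vitronectin. Laminins are secreted trimers of an alpha, a beta and a gamma chain that form the basement membrane, which in the brain surrounds blood vessels along which glioma cells migrate.

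In these data no integrin or laminin gene differed between knockdown and wild-type arrays in limma after Benjamini-Hochberg adjustment over all 18417 genes. The counts were 0 of 35 members and 0 of all genes, or 0.0% of those tested, at an adjusted p under 0.05, and the smallest adjusted p of a member was 0.902. At an unadjusted p under 0.05, 1 member (ITGA10) was found, beside 937 genes or 5.09% of all tested. It was higher in the knockdown, like 3.02% of all genes at this level, and 0 members were lower, beside 2.06% of all genes. The members' log2 differences, knockdown minus wild type, ran from -0.26 (ITGA3) to 0.32 (ITGA10). Their median was 0.007, beside 0.01 over all genes, and 19 members lay above 0 and 16 below. The median absolute difference was 0.09 for the members and 0.09 for all genes.

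The strength of the knockdown and the identity of the cells bear on this comparison. DDX5 was 9.47, 9.79 and 9.91 (log2 signal) in knockdown replicates 1, 2 and 3 and 10.09, 10.25 and 10.30 in the wild type. Its knockdown signal was thus 71.2% of that of the wild type (95% confidence interval 58.4% to 86.9%). The limma p of DDX5 was 0.00337 unadjusted and 0.902 adjusted, so the targeted gene itself did not pass the adjusted threshold. Of 7 glioma line markers, the intermediate filament gene VIM gave a mean signal of 7.6. NES gave 5.78, GFAP 5.62 and EGFR 4.92, whereas CD44, S100B and SOX2 lay within the range of 95% of the olfactory receptor genes described next. Only 1 of the 7, VIM, lay above every olfactory receptor gene, the highest of which was 6.13. The medians of the 6 arrays over all probe sets lay between 4.32 and 4.37.

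Array signals carry no detection call here, so the 341 measured olfactory receptor genes, which are largely silent outside the nose, served to describe dim signal. Their mean signals had a median of 3.06, 95% of them lay below 4.72 and the highest was 6.13. Probes differ in affinity, so a brighter probe set does not show a more abundant mRNA, and this range only marks where a signal cannot be told from that of silent genes. Of the 35 members, 18 lay above the 95% mark and 3 lay above every olfactory receptor gene, against 48.9% and 13.1% of all genes. The 3 were ITGB1, the common beta subunit of matrix receptors, with a mean over the 6 arrays of 7.06, ITGA5, the alpha subunit of the fibronectin receptor, at 6.69, and ITGAV, the alpha subunit of the vitronectin receptors, at 6.49.

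**Figure D1:**
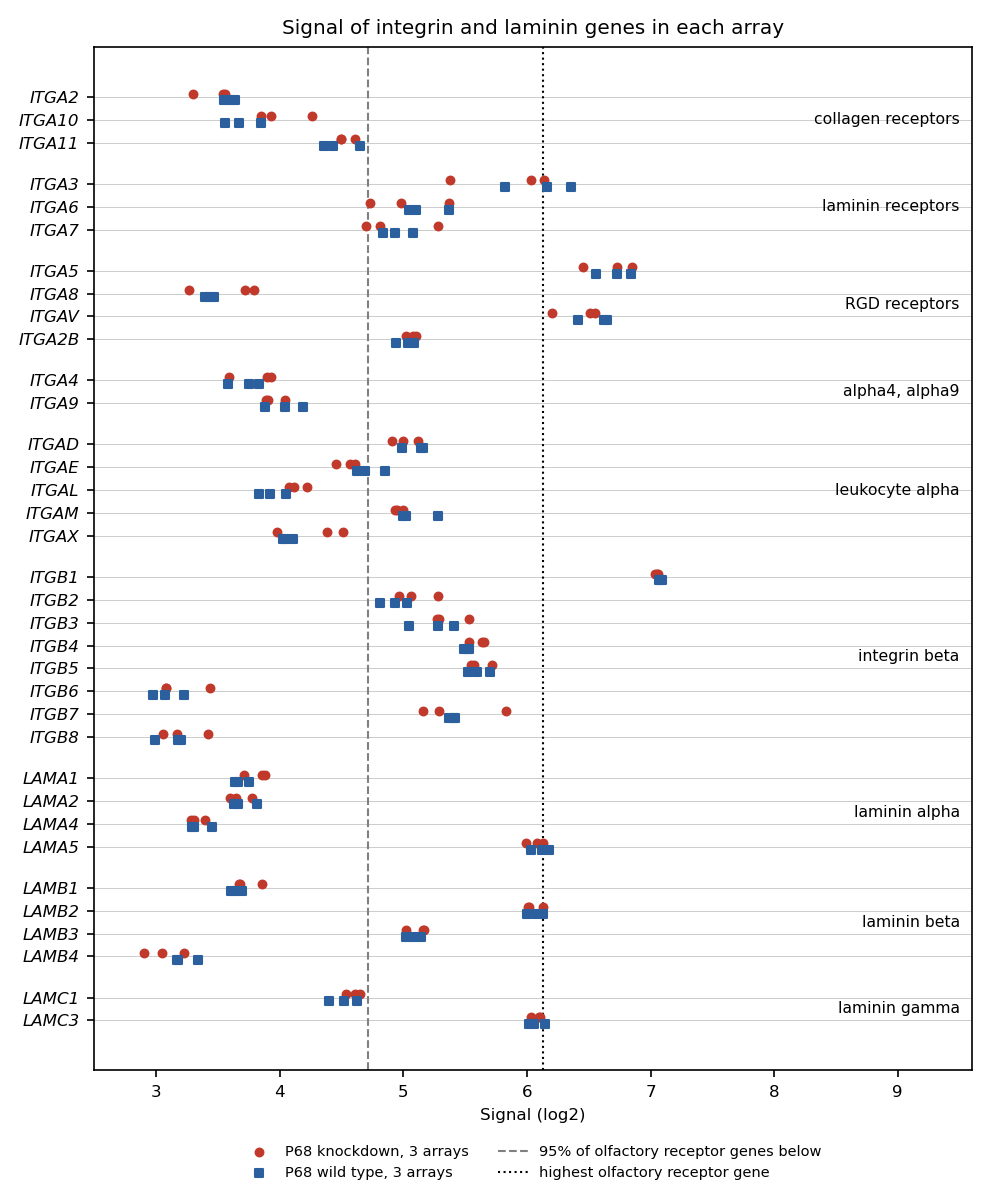
Log2 signal (horizontal axis) of the 35 integrin and laminin genes (rows, grouped by role) in each of the 3 P68 knockdown arrays (circles) and 3 P68 wild-type arrays (squares). The dashed line marks the signal below which 95% of olfactory receptor genes lie (4.72) and the dotted line the highest of them (6.13), and the arrays of ITGB1, ITGA5 and ITGAV all lie to the right of the dotted line.

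Promoter sequence was given by RefSeq (GRCh38.p14) for 24 of the 35 members. The 250 bases before the most upstream listed start are printed for ITGB1, ITGA5 and ITGAV, the members above every olfactory receptor gene, and for LAMB4, the dimmest member, as a contrast. Capitals mark the GC box GGGCGG or, on the other strand, CCGCCC.
ITGB1, chr10:32958231-32958480, minus strand: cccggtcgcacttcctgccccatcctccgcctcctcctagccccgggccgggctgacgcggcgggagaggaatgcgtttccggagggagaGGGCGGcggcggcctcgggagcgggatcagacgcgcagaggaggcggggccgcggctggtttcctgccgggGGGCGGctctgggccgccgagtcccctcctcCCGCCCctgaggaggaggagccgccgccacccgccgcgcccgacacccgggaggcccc
ITGA5, chr12:54419267-54419516, minus strand: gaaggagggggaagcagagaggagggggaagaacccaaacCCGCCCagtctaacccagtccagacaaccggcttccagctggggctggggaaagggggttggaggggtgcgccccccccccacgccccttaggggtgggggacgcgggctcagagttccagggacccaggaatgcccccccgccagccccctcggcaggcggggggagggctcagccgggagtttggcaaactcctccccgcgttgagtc
ITGAV, chr2:186589806-186590055, plus strand: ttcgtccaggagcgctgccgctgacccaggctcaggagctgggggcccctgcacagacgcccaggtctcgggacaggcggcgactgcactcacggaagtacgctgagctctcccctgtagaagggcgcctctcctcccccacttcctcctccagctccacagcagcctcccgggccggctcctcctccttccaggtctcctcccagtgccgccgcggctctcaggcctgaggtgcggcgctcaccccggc
LAMB4, chr7:108130362-108130611, minus strand: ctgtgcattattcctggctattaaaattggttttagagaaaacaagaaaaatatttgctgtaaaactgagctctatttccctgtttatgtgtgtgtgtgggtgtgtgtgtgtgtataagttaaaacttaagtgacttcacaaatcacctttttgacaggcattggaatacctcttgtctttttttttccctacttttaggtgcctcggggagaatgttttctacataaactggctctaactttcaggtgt

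The window of ITGB1 held 3 GC boxes and 32 CpG dinucleotides, that of ITGA5 held 1 and 12, that of ITGAV held 0 and 18, and that of LAMB4 held 0 and 1. Of windows of this length before 27305 genes, 42.2% held a GC box on either strand. Among the members it was 12 of 24, namely 7 of 11 at or above the median gene in signal and 5 of 13 below it. Over the genes tested these shares were 67.4% of the 7216 at or above the median gene and 46.9% of the 7023 below it. A CpG-rich window was also found before dim members: LAMC1 (mean signal 4.56) had 32 CpG dinucleotides, LAMB1 (3.69) had 28, ITGA2 (3.53) had 26 and ITGB8 (3.17) had 21. The median was 19 CpG in the 13 dimmer members and 9 in the 11 brighter ones, whereas over the genes tested it was 14 in the dimmer and 21 in the brighter genes. The TATA sequence TATAAA was found on either strand before 1 member, ITGA6, and before 8.70% of the 14239 genes tested that had a window (11.2% of all 27305). These matches describe the letters of the window, and the start that U-87 uses was not measured.

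ITGB1 pairs with most of the matrix-binding alpha subunits, and its signal barely varied. It was 7.06, 7.04 and 7.05 in knockdown replicates 1, 2 and 3 and 7.08, 7.09 and 7.07 in the wild type. The groups did not overlap, but the gap of 0.01 equals the last deposited decimal. In all, groups did not overlap for 3 of the 35 members, beside 10.1% of all genes: ITGAL was higher in the knockdown (5.98% of all genes), and ITGB1 and ITGAE were lower (4.15% of all genes). The whole range of ITGB1 over 6 arrays was 0.05, and 9 genes of 18417, ITGB1 included, had a range that narrow. Its log2 difference was -0.03 ± 0.09 (SE, limma), with a 95% confidence interval from 85.0% to 113% of the wild-type signal. The sign does not hold under every scaling: the difference was 0.001 after cyclic loess.

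For the alpha subunits that bind RGD proteins, the differences ran from -0.14 to 0.16. ITGA5 gave 6.73, 6.45 and 6.85 in the knockdown and 6.56, 6.84 and 6.73 in the wild type, with a difference of -0.03 ± 0.13 (SE). ITGAV gave 6.20, 6.51 and 6.55 against 6.41, 6.65 and 6.62, a difference of -0.14 ± 0.12 (SE). For both, the groups overlapped, and knockdown replicate 1 was the lowest array for ITGAV. Without that array the ITGAV difference was -0.03. ITGA2B, the platelet fibrinogen receptor subunit, gave 5.08, 5.10 and 5.02 against 4.94, 5.09 and 5.04. These values lie between the 95% mark of the olfactory receptor genes and the highest of them. ITGA8 was dimmer, between 3.27 and 3.79. Its difference was 0.16 ± 0.14 (SE), or 0.32 without knockdown replicate 3.

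The beta partners of ITGAV were ITGB3, ITGB5, ITGB6 and ITGB8 besides ITGB1. ITGB3 gave 5.53, 5.29 and 5.27 in the knockdown and 5.41, 5.28 and 5.05 in the wild type, a difference of 0.12 ± 0.12 (SE). ITGB5 gave 5.72, 5.57 and 5.55 against 5.70, 5.52 and 5.60, a difference of 0.007 ± 0.10 (SE). The groups overlapped for both genes. ITGB6 and ITGB8, whose receptors activate latent TGF-beta, lay between 2.98 and 3.44 on every array, in the middle of the silent range, and differed by 0.11 and 0.09.

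The laminin-binding alpha subunits ITGA3, ITGA6 and ITGA7 varied widely among the knockdown arrays, with SDs of 0.41, 0.32 and 0.31. This was not particular to them: the SD was 0.36 for ITGB7 and 0.28 for both ITGA8 and ITGAX. Over all genes, 12.2% had a wider range over the 6 arrays than ITGA6 and 17.3% a wider one than ITGA7. ITGA3, which binds laminins of the alpha5 and alpha3 chains, gave 5.38, 6.14 and 6.03 in the knockdown and 5.82, 6.36 and 6.16 in the wild type. Knockdown replicate 1 stood below the other five arrays, and the difference of -0.26 ± 0.20 (SE) became -0.03 without it and -0.41 without wild-type replicate 1. The range of ITGA3 over the 6 arrays was 0.98, and 1.57% of all genes had a wider one. ITGA6, which pairs with ITGB1 or ITGB4, went the other way on that array, at 5.37, 4.73 and 4.98 against 5.37, 5.10 and 5.05. Its difference was -0.15 ± 0.16 (SE), or -0.32 without knockdown replicate 1 and 0.002 without knockdown replicate 2. ITGA7, known from muscle, gave 5.28, 4.70 and 4.81 against 4.93, 4.84 and 5.08, and its difference of -0.02 ± 0.15 (SE) lay between -0.20 and 0.095 with single arrays left out. All 3 values lay below 0, and for none did the groups separate. ITGB4, the hemidesmosome partner of ITGA6, gave 5.65, 5.53 and 5.64 against 5.53, 5.49 and 5.52, a difference of 0.09 ± 0.10 (SE), with 1 knockdown array level with the highest wild-type array.

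**Figure D2:**
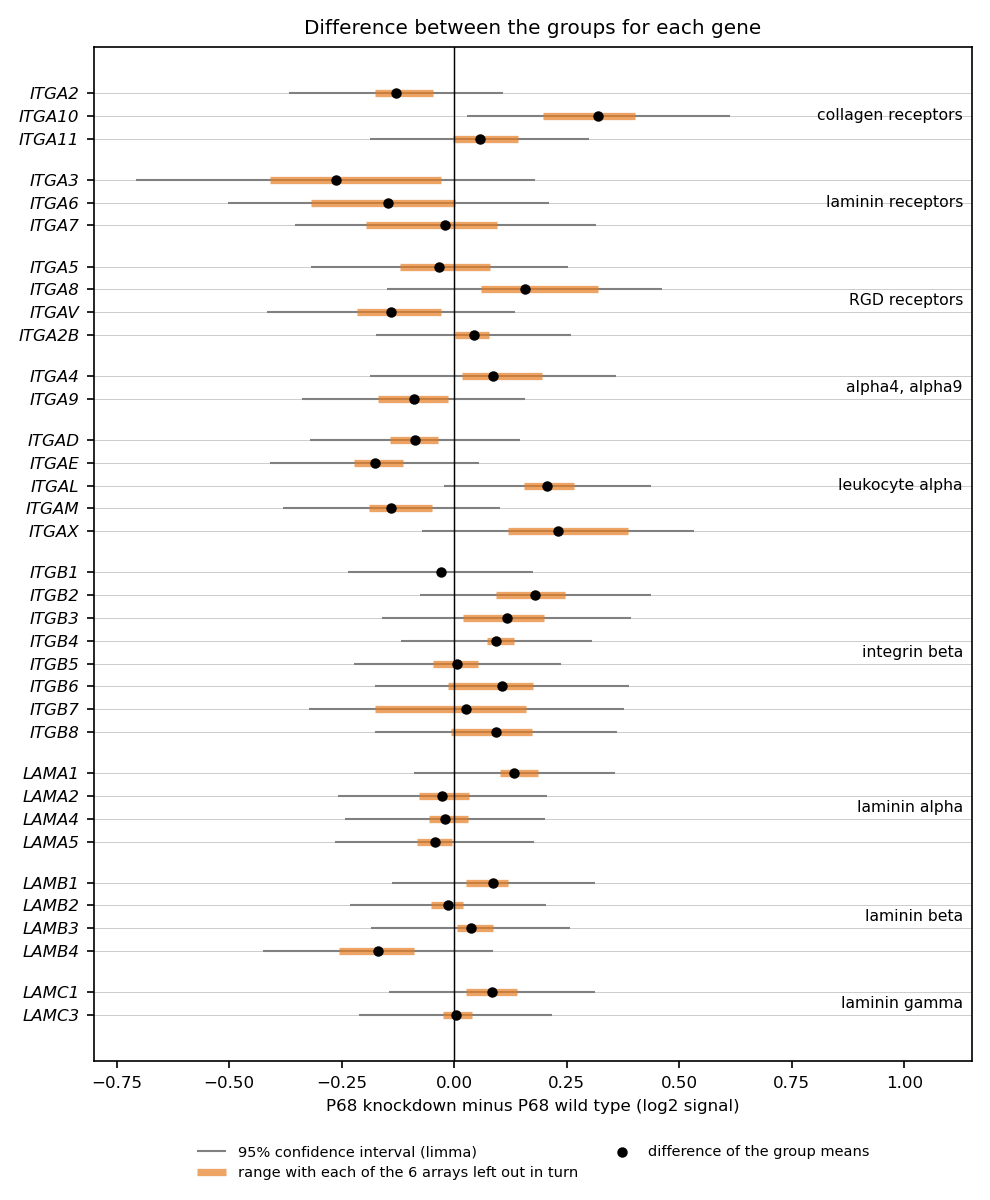
Difference in log2 signal, P68 knockdown minus P68 wild type (horizontal axis), for the 35 genes (rows, grouped by role). Points are differences of group means over 3 arrays each, thin lines are 95% confidence intervals from limma and thick bars the range with each array left out in turn. ITGA10 is the single gene whose interval leaves out 0, and ITGA3 has the widest bar, from -0.41 to -0.03.

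Collagen-binding alpha subunits were dim. ITGA10, a collagen receptor subunit of cartilage, gave 3.85, 4.26 and 3.93 in the knockdown and 3.56, 3.67 and 3.85 in the wild type. The lowest knockdown array equalled the highest wild-type array, and all 6 values lay within the range of the olfactory receptor genes. The knockdown mean was 4.01 ± 0.22 and the wild-type mean 3.69 ± 0.15 (SD, n = 3 each). The difference of 0.32 ± 0.13 (SE) corresponds to 125% of wild type (95% confidence interval 102% to 153%). Its limma p was 0.0349 unadjusted and its adjusted p was 0.902, and an exact permutation test (two-sided) gave p = 0.2, where 0.1 is the smallest value that 3 arrays against 3 allow. The difference lay between 0.20 and 0.40 with single arrays left out, the lowest without knockdown replicate 2. ITGA2 and ITGA11 differed by -0.13 and 0.06, with signals between 3.30 and 4.65. ITGA4 and ITGA9, which bind fibronectin, VCAM1 or tenascin, differed by 0.09 and -0.09 at signals between 3.58 and 4.19.

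Subunits known from leukocytes, a lineage the U-87 line does not belong to, were also on the array. ITGAL gave 4.08, 4.12 and 4.22 in the knockdown and 4.05, 3.92 and 3.83 in the wild type. Its groups did not overlap, with a gap of 0.03 and a difference of 0.21 ± 0.10 (SE). ITGAE gave 4.57, 4.46 and 4.61 against 4.85, 4.69 and 4.63, also without overlap, with a gap of 0.02 and a difference of -0.18 ± 0.10 (SE). For each of these an exact permutation test (two-sided) gave p = 0.1, and the adjusted p by limma was 0.902. The permutation value adds nothing to the lack of overlap, since 3 arrays against 3 without overlap always give 0.1. ITGAX gave 3.98, 4.51 and 4.38 against 4.11, 4.04 and 4.03, and its difference of 0.23 ± 0.14 (SE) ranged from 0.12 to 0.385 with single arrays left out.

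ITGAM, the alpha subunit of a complement receptor, gave 5.0, 4.95 and 4.93 in the knockdown and 5.0, 5.02 and 5.28 in the wild type. ITGAD gave 5.0, 5.12 and 4.91 against 4.99, 5.14 and 5.16. Their beta partner ITGB2 gave 5.06, 5.28 and 4.97 against 5.03, 4.81 and 4.93, and the differences of ITGAM, ITGAD and ITGB2 were -0.14, -0.09 and 0.18, each with overlapping groups. ITGB7, the partner of ITGAE and ITGA4, gave 5.16, 5.83 and 5.29 against 5.41, 5.42 and 5.37, with knockdown replicate 2 highest and replicate 1 lowest of all arrays. Its difference was 0.03 ± 0.16 (SE), or -0.175 without knockdown replicate 2 and 0.16 without replicate 1.

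Of the leukocyte and macrophage markers, 6 of 7 were measured, and none lay above the 95% mark of the olfactory receptor genes. The pan-leukocyte gene PTPRC had a mean signal of 2.74 and AIF1 had 2.84. The summed linear signal of the 6 ran from 89.5 to 90.0 in the knockdown and from 79.2 to 85.0 in the wild type, and 4 of the 6 differences lay above 0. CD14, a monocyte receptor for endotoxin, was the member that differed most, at 4.34, 4.65 and 4.39 against 4.16, 3.79 and 4.17, a difference of 0.42 ± 0.13 (SE) whose limma adjusted p was 0.902. None of the 6 passed the adjusted threshold. Of the 5 leukocyte alpha subunits, ITGAL and ITGAX lay above 0 and ITGAD, ITGAE and ITGAM below, with a median of -0.09. The part of the marker signal in any of these values was not tested. RNA from whole cultures does not separate the number of cells of a type from the RNA per cell. These dim marker signals from the U-87 line were not read as leukocytes in the cultures. The 4 platelet markers had a summed signal of 75.2 to 76.7 in the knockdown and 69.5 to 76.4 in the wild type, and the 4 endothelial markers 75.3 to 94.0 and 79.1 to 86.1.

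Laminin chains, which form the ligands of ITGA3, ITGA6 and ITGA7, lay close between the groups. LAMA5, the broadly expressed alpha chain of vascular basement membrane, gave 5.99, 6.13 and 6.08 in the knockdown and 6.18, 6.03 and 6.12 in the wild type. LAMB2 gave 6.13, 6.01 and 6.02 against 6.07, 6.00 and 6.13. LAMC3 gave 6.10, 6.11 and 6.03 against 6.15, 6.02 and 6.06. Groups overlapped for all 3, with differences of -0.04, -0.01 and 0.003, and the 95% confidence interval for LAMB2 ran from 85.2% to 115% of the wild-type signal. LAMB3, the beta chain of epithelial laminin, gave 5.02, 5.17 and 5.16 against 5.08, 5.14 and 5.02, a difference of 0.04.

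The remaining laminin chains lay within the range of 95% of the olfactory receptor genes. LAMC1, the gamma chain of most laminins, lay between 4.40 and 4.65 and differed by 0.08. LAMB1, its common beta partner, lay between 3.61 and 3.86 and differed by 0.09. LAMA4, the alpha chain of vessel and glioma laminin, lay between 3.28 and 3.45 and differed by -0.02. LAMA1 and LAMA2 differed by 0.13 and -0.03, and LAMB4 by -0.17. The chains of the trimer of LAMA4, LAMB1 and LAMC1 thus showed no difference beyond their error, and neither did those of LAMA5, LAMB2 and LAMC1.

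The range over the 6 arrays was at most 0.25 for 9 of the 10 laminin chains, LAMB4 being the other, at 0.44. The same held for 5 of the 25 integrins and for 19.2% of all genes. The median range was 0.205 for laminin chains, 0.40 for integrins and 0.39 for all genes. No single array carried the members as a group: their median deviation from each gene's own mean lay between -0.03 (wild-type replicate 2) and 0.04 (knockdown replicate 2), and for all genes between -0.01 and 0.02.

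**Figure D3:**
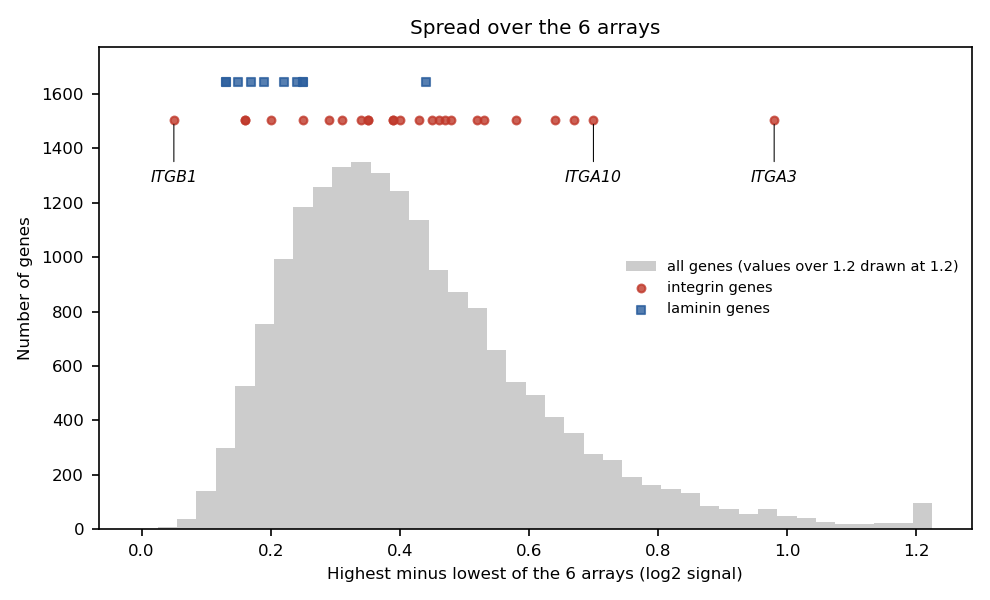
Number of genes (vertical axis) by the highest minus the lowest log2 signal of the 6 arrays (horizontal axis), for all 18417 genes (grey bars), with the 25 integrin genes (circles) and 10 laminin genes (squares) marked above at their own values. ITGB1 lies at 0.05, ITGA10 at 0.70 and ITGA3 at 0.98, and 9 of the 10 laminin genes lie at or below 0.25.

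The genes that act with these subunits were read from lists of partners. Of 28 genes of the integrin adhesion complex, 26 were measured, 0 passed the adjusted threshold, 13 lay above 0, 12 below and ACTN4 at exactly 0 (median 0.005). Groups did not overlap for 1 of the 26, beside 10.1% of all genes: PTK2B was higher in the knockdown (5.98% of all genes). FERMT3, the kindlin of blood cells, had the largest value at 0.27 ± 0.14 (SE), and ITGB1BP1, which restrains ITGB1 activation, the lowest at -0.24 ± 0.19 (SE). FERMT2, the kindlin of most adherent cells, gave 7.35, 6.80 and 7.29 in the knockdown against 7.44, 7.34 and 7.31, with knockdown replicate 2 below all others.

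Among 13 other matrix ligands, 10 lay above 0 and 3 below, with a median of 0.09 and 0 past the adjusted threshold. Groups did not overlap for 5 of the 13, beside 10.1% of all genes. The list was picked with earlier results of these data known, so this count was not tested against that share. VTN, SPP1, COL4A1 and FBN1 were higher in the knockdown (5.98% of all genes), and FN1 was lower (4.15% of all genes). SPP1 differed by 0.29 ± 0.11 (SE), COL4A1 by 0.10 and FBN1 by 0.09, with gaps of 0.02, 0.04 and 0.02 between the groups. VTN, vitronectin, a ligand of the ITGAV receptors, gave 5.30, 5.40 and 5.08 in the knockdown and 4.78, 4.98 and 4.89 in the wild type. The groups did not overlap, and the difference was 0.38 ± 0.12 (SE) with an adjusted p of 0.902 by limma. FN1, fibronectin, the ligand of ITGA5 with ITGB1, had the lowest value of the list, at 4.61, 4.54 and 4.76 against 4.78, 4.93 and 4.83, a difference of -0.21 ± 0.10 (SE) with a gap of 0.02 between the groups. In mean signal, SPP1 and FBN1 lay below the 95% mark of the olfactory receptor genes. VTN, FN1 and COL4A1 lay between that mark and the highest olfactory receptor gene. Of 7 other laminin receptors and integrin partners, 5 were measured (3 above 0, 2 below, 0 past the threshold), from CD9 at -0.10 to CD47 at 0.09. Groups overlapped for all 5. Of 4 genes of latent TGF-beta, 1 lay above 0 and 3 below, with 0 past the threshold, from TGFB3 at -0.20 to LRRC32 at 0.16. Groups did not overlap for 1 of the 4, LRRC32, which was higher in the knockdown (5.98% of all genes).

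The number of arrays limits what could be seen. The median standard error was 0.11 for the members and 0.12 for all genes. In simulated data, 200 genes among 18417 were changed by 0.5, 1, 1.5 or 2 on the log2 scale. Limma at 3 arrays against 3 recovered 47.6% of those changed by 0.5. The larger changes ease the adjusted cutoff, so this share can exceed what the real data allow, where 0 genes passed. DDX5 itself, at -0.49, had an adjusted p of 0.902 by limma. The largest absolute difference of all genes, -1.19 for ADCY10P1, also had an adjusted p of 0.902 by limma. Changes of 0.5 or smaller in these subunits, and larger ones too, may therefore go undetected.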

How the data were processed

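The deposited table holds log2 signals of 29096 probe sets on 6 arrays, given to 2 decimals. Per the submitters' processing notes they come from RMA, whose version is not stated. RMA corrects background, gives all arrays 1 distribution and summarises probes, and it hides a shift common to most genes. In the probe annotation 19460 probe sets had 1 symbol, 1754 several and 7882 none, and 19429 of the first matched the RefSeq gene table. For each of 18417 genes the brightest probe set by mean was kept.

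Groups were compared with limma 3.58.1 (lmFit with eBayes) under R 4.3.3, two-sided, with Benjamini-Hochberg adjustment over all genes at 0.05. The fit was tested on simulated data in 5 sets. The rule for members uses gene names only, but the families, partner lists and markers were picked with earlier results of these data known. Values in every array were given for members at or above the median gene (4.67), with groups that do not overlap or with an unadjusted p under 0.05, and for each partner list the largest and the lowest value was named. Further partners and some dim members were added after their values were seen. Alternatives were array-median centring, cyclic loess, a filter on the dimmest 40% of genes, averaged probe sets, an intensity trend with robust estimation, a replicate block and leaving out each array. Promoters were read from RefSeq at the most upstream listed start of each gene.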

Additional observations from a re-analysis of the deposited data

How the results depend on the processing

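No integrin or laminin gene, and no gene of the whole table, passed the adjusted threshold in limma under any of the alternatives run, while 543 (without wild-type replicate 2) to 1353 (without knockdown replicate 1) genes had an unadjusted p under 0.05. The members' median difference of 0.007 stayed within 1 SD between arrays (0.026), at -0.01 after array-median centring, 0.001 after cyclic loess, -0.01 without the dimmest 40% of genes, and between -0.007 and 0.03 with single arrays left out. For members at or above the median gene, a choice made after seeing the data, it was -0.02. The replicate block left 0 genes and 0 members past the threshold, with 1149 genes and 2 members (ITGA10 and ITGA3) at an unadjusted p under 0.05. In this balanced design the block cannot change a difference, so the median stayed at 0.007. Arrays of the same replicate number deviated together with r = 0.27, -0.03 and 0.13 for numbers 1, 2 and 3, so the numbers were not taken to pair the samples, and not every array correlated best with its own number. Of the 35 members, 22 kept the sign of their difference under every alternative, and 12 turned it with at least 1 array left out. Only array-median centring, cyclic loess and leaving out arrays could turn a sign. The other alternatives leave each member's own difference as it is. The count of members at an unadjusted p under 0.05 ran from 0 to 3 with single arrays left out: ITGA10, ITGA6 and ITGAX without knockdown replicate 1, ITGA10 and ITGA8 without knockdown replicate 3, ITGAL without wild-type replicate 1, ITGA10 without wild-type replicate 3, and 0 members when knockdown replicate 2 or wild-type replicate 2 was left out. It was also 0 without the dimmest 40% of genes, which leaves ITGA10 out. Signal over background was not measured, so all members but the 3 above every olfactory receptor gene lay at signals that some silent genes also reach.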
